A study of Mus musculus with 15 samples.

Results

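Expression of 9 mouse genes was followed on 20 Affymetrix microarray probe sets in 5 embryonic stem cell lines. The genes were Pdxdc1, Ipp, Calcoco2, Baiap2l1, Liph, Calml4, Car4, B4galnt2 and Myo1f, 9 of the 18193 genes and 20 of the 45101 probe sets on the array. They were chosen by their very large differences between lines in earlier results of these same arrays, so their line differences are a description here and carry no test. The choice set no numerical threshold. A probe set is a group of short probes against a stretch of a transcript, and its value is a log2 intensity. Values can be compared between lines within a probe set but not between probe sets.

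Each line had 3 arrays, 15 in all. FpB6CBA was parthenogenetic, from oocytes grown in cultured preantral follicles of B6CBAF1 mice, the hybrid of a C57BL6 female and a CBA/Ca male. FpB6D2 was parthenogenetic as well, from follicle-grown oocytes of B6D2F1 mice, the hybrid of a C57BL6 female and a DBA2 male. Follicles came from 2-week-old prepubertal females. OpB6D2 was parthenogenetic from naturally ovulated oocytes of B6D2F1 mice. R1 is a purchased fertilised line from a cross of 2 related substrains, 129S1/SvImJ and 129X1/SvJ. NmB6D2 was a fertilised line from matings of C57BL6 females with DBA2 males. Every line stands for a single derivation, so strain, mode of origin and the history of the line cannot be told apart. Oocytes of F1 females are recombinant, so FpB6D2 and OpB6D2 need not share a genotype at any of the 9 genes. Nothing in the labels says that the 3 arrays of a line came from separate cultures, and the spread between them may be technical.

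A parthenogenetic cell has 2 maternal chromosome sets and no paternal set. Inbred mouse strains carry many sequence differences that change how much of a transcript is made, how it is spliced or whether a short probe matches it, and a homozygous line shows such a difference undiluted. The 9 genes have unrelated products. Pdxdc1 encodes a protein with a pyridoxal-dependent decarboxylase domain. Ipp encodes a kelch-repeat protein that binds actin and takes its name from a placental transcript started in an intracisternal A particle, a retrovirus-like element whose copies differ between mouse strains. Calcoco2 is the mouse counterpart of human NDP52, which in human cells links ubiquitin-coated bacteria and mitochondria to the autophagy machinery. Baiap2l1 encodes an I-BAR protein that joins the plasma membrane to actin. Liph encodes a phospholipase that makes the lipid signal lysophosphatidic acid. Calml4 encodes a calmodulin-like light chain found in the brush border of epithelial cells. Car4 encodes a carbonic anhydrase anchored to the outer face of the membrane. B4galnt2 encodes the transferase that adds the last sugar of the Sd(a) carbohydrate antigen, and inherited regulatory variants are known to move its expression between gut epithelium and blood vessels in mice. Myo1f encodes a class I myosin known mainly from leukocytes.

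RefSeq promoters, 250 bases before and 50 bases after the annotated start of transcription in the GRCm38.p6 assembly of C57BL/6J, were matched for 8 of the 9 genes. The first 3 sequences belong to the genes whose levels ran most alike over the arrays, all highest in FpB6CBA, and the fourth to Liph, which was also highest there. Each is given on the coding strand, 5′ to 3′. Capitals mark matches on either strand to the TATA box (TATAAA), the CCAAT box, the GC box (GGGCGG), the octamer (ATGCAAAT) or the GATA motif (AGATAA).
Ipp (chr4:116507299-116507598, plus strand): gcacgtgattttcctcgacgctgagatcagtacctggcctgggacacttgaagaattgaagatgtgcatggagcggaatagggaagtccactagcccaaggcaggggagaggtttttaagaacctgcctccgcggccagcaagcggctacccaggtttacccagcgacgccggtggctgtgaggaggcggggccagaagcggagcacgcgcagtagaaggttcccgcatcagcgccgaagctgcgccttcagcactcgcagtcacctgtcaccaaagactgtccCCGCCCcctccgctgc
Baiap2l1 (chr5:144358063-144358362, minus strand): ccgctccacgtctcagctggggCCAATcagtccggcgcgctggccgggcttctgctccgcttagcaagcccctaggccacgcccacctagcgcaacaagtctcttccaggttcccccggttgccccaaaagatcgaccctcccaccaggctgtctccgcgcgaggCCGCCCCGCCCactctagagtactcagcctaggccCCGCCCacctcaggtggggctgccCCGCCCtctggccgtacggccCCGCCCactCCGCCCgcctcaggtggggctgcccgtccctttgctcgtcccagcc
B4galnt2 (chr11:95914822-95915121, minus strand): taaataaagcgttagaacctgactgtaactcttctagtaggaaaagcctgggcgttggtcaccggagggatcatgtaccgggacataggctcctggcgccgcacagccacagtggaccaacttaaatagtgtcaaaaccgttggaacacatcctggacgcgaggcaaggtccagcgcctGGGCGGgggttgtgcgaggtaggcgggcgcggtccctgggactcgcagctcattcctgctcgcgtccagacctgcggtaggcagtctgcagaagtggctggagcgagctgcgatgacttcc
Liph (chr16:21995493-21995792, minus strand): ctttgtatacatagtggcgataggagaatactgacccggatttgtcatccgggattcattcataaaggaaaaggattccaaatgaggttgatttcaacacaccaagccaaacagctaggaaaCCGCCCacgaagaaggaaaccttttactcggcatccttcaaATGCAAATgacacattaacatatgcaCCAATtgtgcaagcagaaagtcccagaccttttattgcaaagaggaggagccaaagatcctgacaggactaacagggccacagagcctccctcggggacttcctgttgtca

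Ipp, Baiap2l1 and B4galnt2 had 21, 25 and 21 CpG dinucleotides in the 300 bases, against a median of 7 over 32851 promoters. Liph had 7. The GC box, bound by Sp1-type factors, matched once in Ipp, 6 times in Baiap2l1, where 2 of the matches share a base, once in B4galnt2 and once in Liph. It was held by 35.7% of all promoters of that length. The CCAAT box matched once in Baiap2l1 and once in Liph (37.4% of all promoters). The octamer, known as a motif of POU factors, matched once in Liph, 87 bases before the start, and in 1.74% of all promoters. The TATA box (13.6% of all promoters) and the GATA motif (11.2%) matched in none of the 4. These sequences are those of the reference strain, not of the alleles in the lines.

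Over the 12813 genes that reached the filter value on at least 3 arrays, the highest and the lowest of the 5 line means differed by a median of 0.74 log2 units. The filter value was 3.864, the median of all array values. The 9 genes, each taken at its lead probe set (the one with the highest mean over the arrays), differed by 3.93 to 6.52 log2 units. Baiap2l1 ranked 3rd of the 12813, Pdxdc1 10th, Myo1f 12th, Calml4 19th, Car4 22nd, Ipp 39th, Liph 52nd, Calcoco2 70th and B4galnt2 87th. In all, 81 genes (0.632%) differed by 4 or more. By limma's moderated F test, 4211 genes (32.9%) differed among the 5 lines, with an adjusted p below 0.05 and line means spanning 2-fold or more, and no gene spanning 2-fold failed that test.

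**Figure D1:**
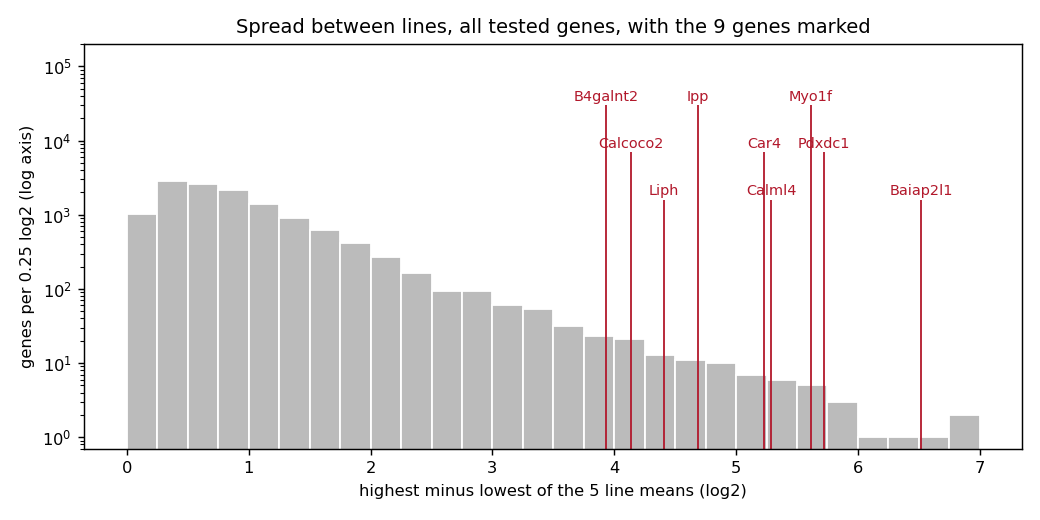
Histogram of the difference between the highest and the lowest of the 5 line means (log2, x axis) for the 12813 tested genes, with the number of genes per bin on a log axis. Vertical lines mark the lead probe sets of the 9 genes, which lie between 3.93 and 6.52 log2 units.

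Set against the filter value, which is not a detection limit, the 9 genes were near on-off between lines only in part. The lowest line mean was below the filter value for Pdxdc1, Car4, B4galnt2 and Myo1f. It stayed above that value for the other 5 genes, at 4.85 for Ipp, 6.36 for Calcoco2, 4.29 for Baiap2l1, 5.08 for Liph and 4.23 for Calml4. Among the 3 lines of B6D2 origin alone, 6 of the 9 genes differed by at least 1 log2 unit and 3 of them by at least 3. That spread was 4.14 for Calcoco2, the whole of its range, 4.10 for Myo1f, 3.24 for Calml4, 2.65 for Liph, 2.32 for Baiap2l1 and 1.36 for B4galnt2. The 3 lines lay closer for Car4 (0.94), Ipp (0.60) and Pdxdc1 (0.19), against a median of 0.42 over all tested genes. In 4 of the genes, the lines named for the same cross spanned 60.1% to 100% of the range over all 5 lines, so levels are given by line and not by strain.

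**Figure D2:**
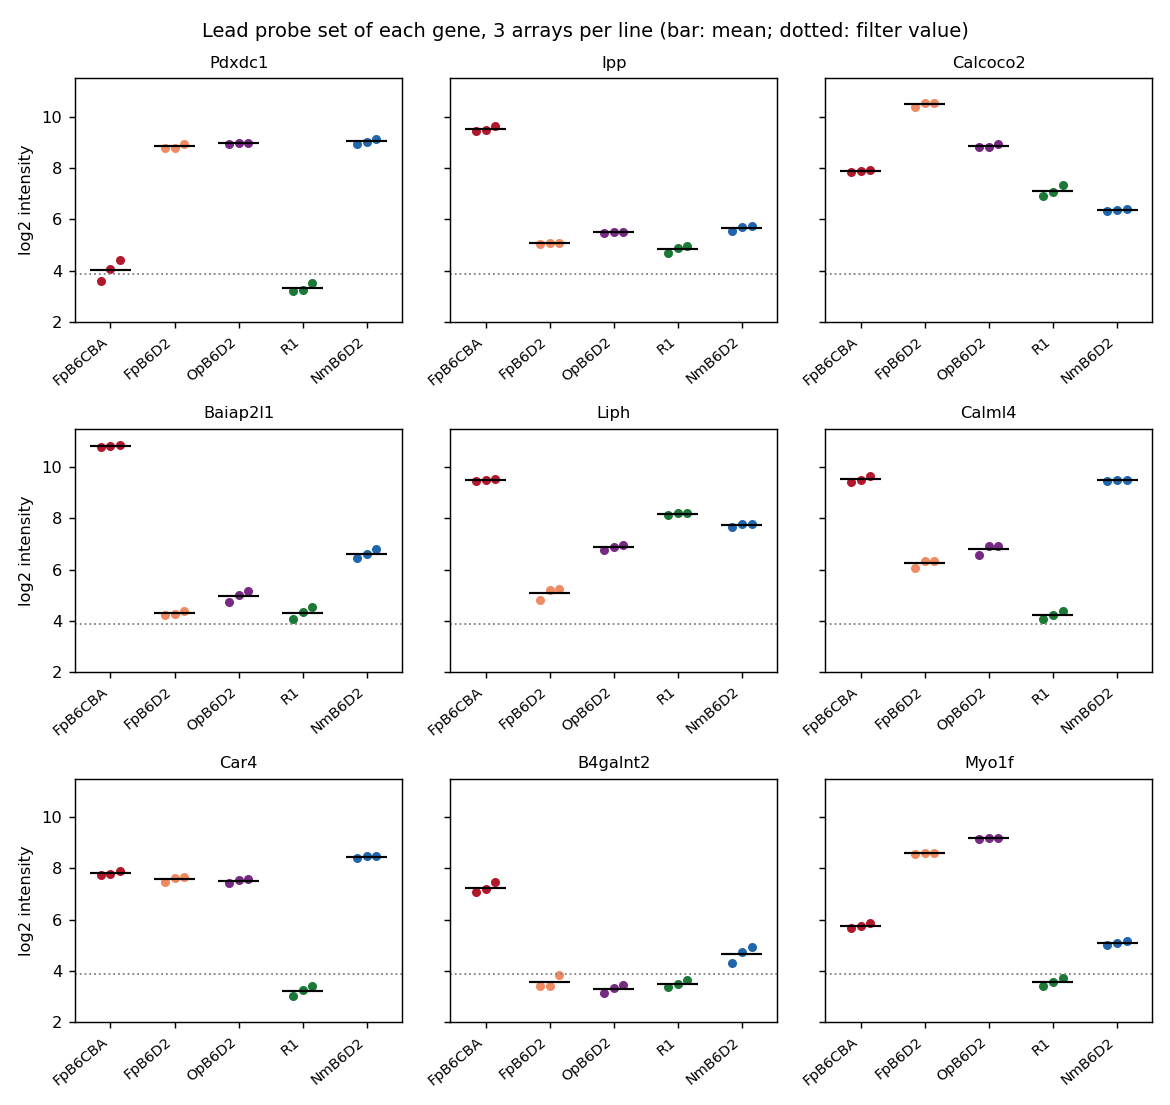
Log2 intensity of the lead probe set of each of the 9 genes (y axis) in the 5 lines (x axis), with a point per array, a bar at the mean of 3 arrays and a dotted line at the filter value of 3.864. FpB6CBA stands alone at the top for Ipp, Baiap2l1 and B4galnt2, and R1 alone at the bottom for Car4.

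Whether the probe sets of a gene told the same story could be asked for 6 of the 9 genes. Ipp, Calcoco2 and Calml4 have a single probe set each, and their patterns rest on it. For the 6 others, the line that was highest on the lead was set against the line that was lowest on the lead in each further probe set. A probe set was said to follow when that difference was at least 1 log2 unit, to be flat when it was smaller and to be opposite at -1 or less. Of 11 further probe sets, 6 followed, 4 were flat and 1 was opposite. Every further probe set followed in Baiap2l1, Car4 and Myo1f. The further Liph probe set is among the 6 at 1.01, but 4 of its 5 line means lie under the filter value. With line means under the filter value raised to it, a setting chosen after seeing the data, its difference was 0.19, and 5 probe sets followed, 5 were flat and 1 was opposite. B4galnt2 had 1 that followed and 2 that were flat. Pdxdc1 had 2 that were flat and the opposite one.

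**Figure D3:**
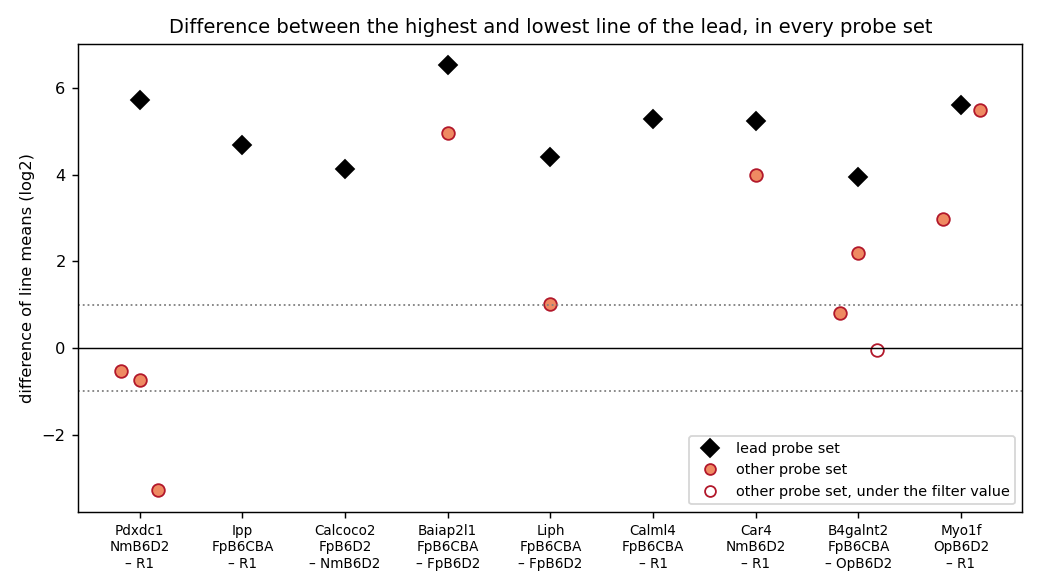
Difference between 2 line means (log2, y axis) in every probe set of the 9 genes, with the lines, those highest and lowest on the lead probe set, named under each gene. Diamonds are lead probe sets, filled circles further probe sets and the open circle a probe set under the filter value on every array. The Pdxdc1 circle at -3.28 is the only one past the lower dotted line at -1.

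Pdxdc1 showed opposite patterns of high and low lines on different probe sets. On its lead, 1419327_at, the arrays read 3.58, 4.07 and 4.40 in FpB6CBA and 8.80, 8.80 and 8.94 in FpB6D2. OpB6D2 read 8.96, 8.98 and 8.99, R1 read 3.19, 3.24 and 3.52, and NmB6D2 read 8.95, 9.02 and 9.14. The 3 B6D2 lines were high and FpB6CBA and R1 low, and no array lay between 4.40 and 8.80. FpB6CBA minus NmB6D2 was -5.02 ± 0.24 log2 units (SE, 3 arrays per line), which is 32.4-fold. R1 minus NmB6D2 was -5.72 ± 0.12, at least 36.1-fold. Here and below a fold is a lower bound where the low line lies under the filter value, which then stands in for it.

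On the probe set 1452705_at of Pdxdc1 the same lines changed places. FpB6CBA read 8.52, 8.62 and 8.64 and FpB6D2 read 5.21, 5.33 and 5.41. OpB6D2 read 4.90, 5.22 and 5.37, R1 read 8.19, 8.21 and 8.22, and NmB6D2 read 4.89, 4.93 and 4.96. FpB6CBA and R1 were now the high lines, again without overlap with the B6D2 lines. On this probe set the low lines too reached the filter value on every array. The difference of NmB6D2 minus R1, which was 5.72 on the lead, was -3.28 on this probe set.

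The remaining Pdxdc1 probe sets moved little. On 1436372_a_at, above the filter value on all 15 arrays, FpB6CBA averaged 7.14 ± 0.14 (SD, n = 3) and R1 6.98 ± 0.05. FpB6D2 averaged 6.63 ± 0.05, OpB6D2 6.29 ± 0.13 and NmB6D2 6.25 ± 0.18. That is a range of 0.90 units, with FpB6CBA and R1 on top. The probe set 1428200_a_at reached the filter value on 3 arrays and ranged over 0.62. Averaged over its 4 probe sets, Pdxdc1 differed by 0.29 between R1 and NmB6D2, with NmB6D2 higher. Reaching the filter value does not by itself show that a transcript was present. The cause of the opposite patterns was not tested, and probe sequences were not used here.

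**Figure D4:**
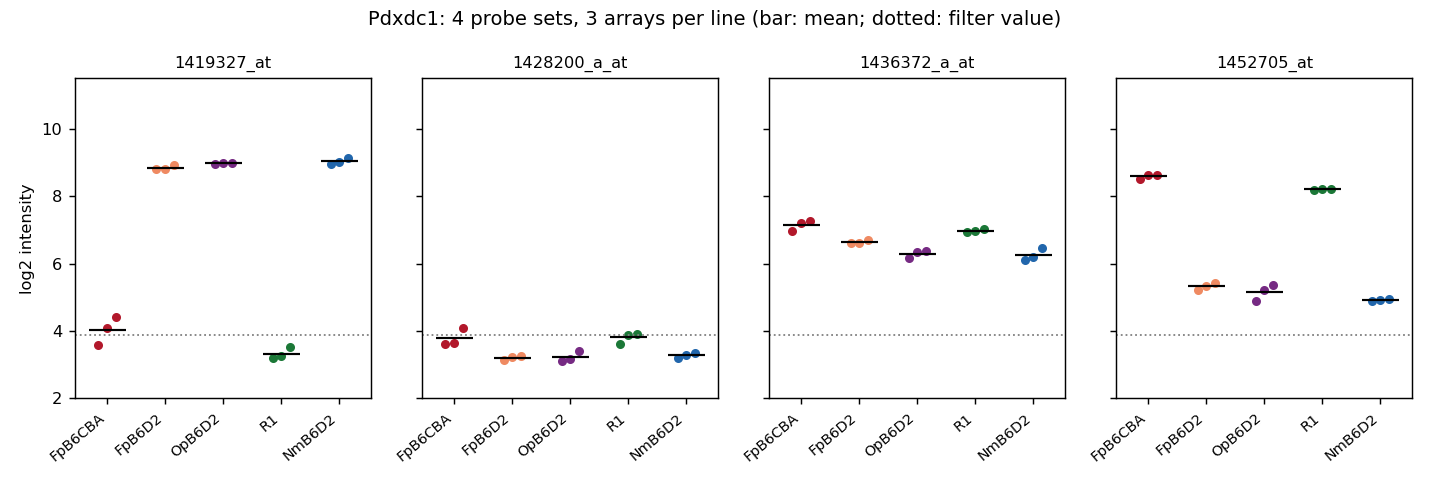
Log2 intensity (y axis) of the 4 Pdxdc1 probe sets in the 5 lines (x axis), with a point per array, a bar at the mean of 3 arrays and a dotted line at the filter value. FpB6CBA and R1 are low on 1419327_at, at 4.02 and 3.32, and high on 1452705_at, at 8.59 and 8.21.

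FpB6CBA stood apart in Ipp, Baiap2l1 and B4galnt2. Ipp read 9.46, 9.48 and 9.66 in FpB6CBA. It read 5.05, 5.06 and 5.09 in FpB6D2, 5.46, 5.49 and 5.52 in OpB6D2, 4.67, 4.90 and 4.98 in R1, and 5.54, 5.71 and 5.76 in NmB6D2. No array of another line came near those of FpB6CBA, and the neighbours in the order of the other 4 lines did not overlap, though they spanned only 0.82 units. FpB6CBA minus NmB6D2 was 3.87 ± 0.09 (14.6-fold), and FpB6CBA minus R1 was 4.69 ± 0.11 (25.7-fold). In 3 of the 12813 genes FpB6CBA lay at least 3 units above all 4 other lines, namely Ipp, Baiap2l1 and Ctsh, a lysosomal protease gene that was named after its values were seen.

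Baiap2l1 had the widest range of the 9. It read 10.77, 10.81 and 10.86 in FpB6CBA, 4.21, 4.28 and 4.38 in FpB6D2, and 4.74, 5.01 and 5.16 in OpB6D2. R1 read 4.08, 4.35 and 4.52, and NmB6D2 read 6.43, 6.61 and 6.79. NmB6D2 was intermediate and apart from both sides, while FpB6D2 and R1 overlapped. FpB6CBA exceeded FpB6D2 by 6.52 ± 0.06 (91.8-fold) and NmB6D2 by 4.20 ± 0.11 (18.4-fold).

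The further Baiap2l1 probe set, 1451539_at, gave 9.14 ± 0.16 in FpB6CBA, 4.19 ± 0.15 in FpB6D2, 4.34 ± 0.01 in OpB6D2, 4.35 ± 0.22 in R1 and 4.87 ± 0.08 in NmB6D2 (SD, n = 3 each). It kept FpB6CBA on top and NmB6D2 second, but NmB6D2 was there only slightly above the 3 lowest lines.

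B4galnt2 was at or under the filter value in most lines. Its lead, 1442028_at, read 7.06, 7.18 and 7.48 in FpB6CBA and 4.32, 4.75 and 4.94 in NmB6D2. The arrays of FpB6D2 (3.40 to 3.85), OpB6D2 (3.15 to 3.44) and R1 (3.37 to 3.65) overlapped and lay under 3.864. FpB6CBA minus NmB6D2 was 2.57 ± 0.22 (5.95-fold), and FpB6CBA was at least 10.4-fold above each of the other 3 lines. As in Baiap2l1, FpB6CBA was highest and NmB6D2 second.

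The further B4galnt2 probe sets were weaker. On 1439853_at, FpB6CBA averaged 5.51 ± 0.23 and NmB6D2 3.75 ± 0.16 (SD, n = 3 each), and the gap between FpB6CBA and OpB6D2 was 2.20 units. On 1421522_at that gap was 0.80, with FpB6CBA at 4.15 ± 0.41. On 1441929_at no array reached the filter value and the line means ran from 2.64 to 2.85. FpB6CBA was thus on top on 3 of the 4 probe sets. By the rule above, only 1439853_at followed the lead. On 1421522_at the gap was 0.28 with line means under the filter value raised to it.

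Over the 15 arrays, the leads of Baiap2l1 and B4galnt2 correlated at r = 0.978, Baiap2l1 and Ipp at 0.974 and Ipp and B4galnt2 at 0.958. The 15 points come from 5 lines, so these values mostly restate that FpB6CBA was high. Among genes with line means spanning at least 2 units, the genes most like Ipp were Slc4a3 (r = 0.983), an anion exchanger gene, Col4a1 (0.980), a basement membrane collagen gene, and Micall2 (0.979). For Baiap2l1 they were Susd1 (0.988), Dab2 (0.981), an endocytic adaptor gene of the endoderm, and B4galnt2. For B4galnt2 they were Ifi30 (0.984), Baiap2l1 and Col4a1 (0.978).

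Several markers of the extraembryonic endoderm, the lineage that forms the yolk sac, were also higher in FpB6CBA than in NmB6D2. Of 9 tested markers, 6 were called higher in FpB6CBA than in NmB6D2 by limma and 0 lower, and all 9 were higher at an unadjusted p under 0.05. Over all genes 2.57% were called higher and 1.63% lower, and the list's median difference was 1.68 against 0.02. Dab2 averaged 9.0 in FpB6CBA and 7.02 in NmB6D2 (difference 1.98 ± 0.13 SE, limma adjusted p = 3.1e-08, 3 arrays per line). Cubn (1.68 ± 0.26, adjusted p = 0.000125) and Amn (1.73 ± 0.13, adjusted p = 1.79e-07), which encode the receptor pair of visceral endoderm endocytosis, were higher as well, as were Sox17, Foxa2 and Gata6, transcription factors of that lineage. Other markers were highest in lines with low Ipp, Baiap2l1 and B4galnt2. Gata4 averaged 5.51 in FpB6CBA and 7.40 in R1, and Sox7 averaged 5.18 in FpB6CBA and 6.58 in FpB6D2.

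Summed over the 10 endoderm markers, the signal lay between 10.22 and 10.48 on the FpB6CBA arrays, against 8.49 to 8.59 in FpB6D2, 8.48 to 8.61 in OpB6D2, 8.90 to 9.08 in R1 and 8.56 to 8.93 in NmB6D2 (log2 of the sum). R1 had about as much Sox17 as FpB6CBA, at 6.21 against 6.31, but little Cubn (3.75) and Amn (4.44), and its Ipp, Baiap2l1 and B4galnt2 were low. Afp, a marker of later visceral endoderm, was under the filter value in every line. The summed signal of 6 pluripotency markers was lowest in FpB6CBA, at 13.41 to 13.53, against 13.62 to 13.74 in NmB6D2. The part of such cells in the levels of Ipp, Baiap2l1, B4galnt2 and Liph was not tested. In these bulk samples a larger share of cells and more RNA per cell cannot be told apart.

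**Figure D5:**
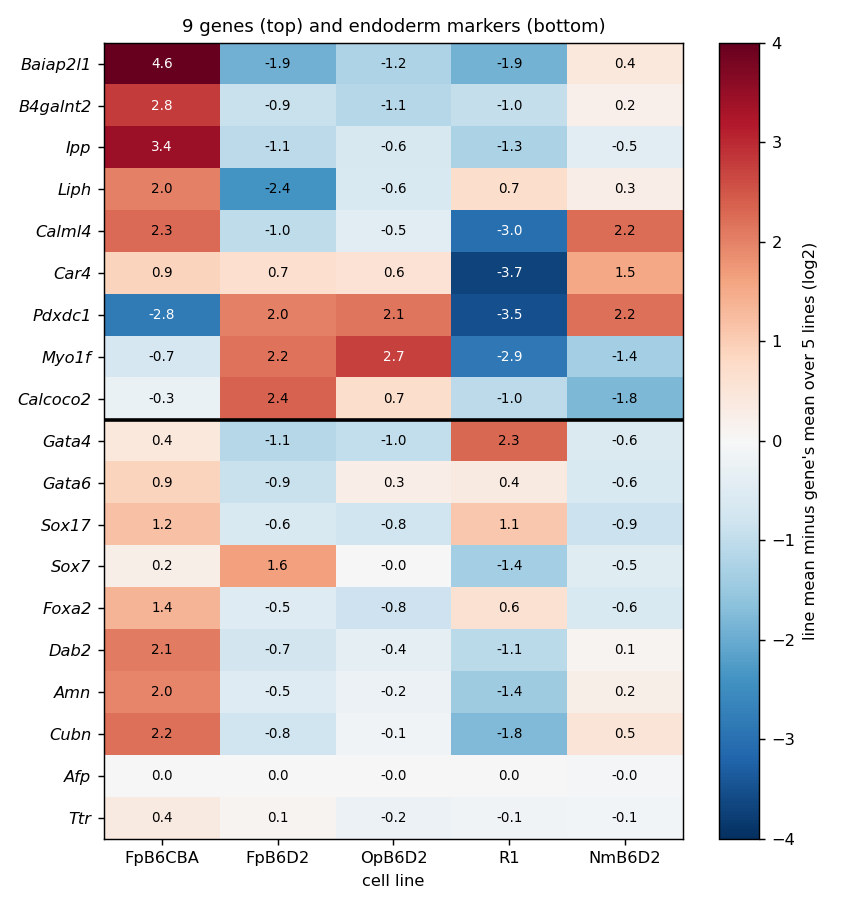
Line means of the 9 genes (upper block) and of 10 endoderm markers (lower block) in the 5 lines, each minus that gene's mean over the lines (log2, colour and number). Baiap2l1, B4galnt2 and Ipp share the dark FpB6CBA column with Dab2, Amn and Cubn, while Afp is near 0 throughout.

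Liph was graded rather than on-off. Its lead, 1457026_at, read 9.47, 9.48 and 9.52 in FpB6CBA, 4.82, 5.19 and 5.24 in FpB6D2, and 6.77, 6.89 and 6.96 in OpB6D2. R1 read 8.11, 8.19 and 8.21, and NmB6D2 read 7.67, 7.76 and 7.77. All 5 lines were apart from their neighbours in the order. FpB6CBA minus FpB6D2 was 4.41 ± 0.13 (21.2-fold), and FpB6D2 minus NmB6D2 was -2.65 ± 0.14 (6.28-fold).

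The further Liph probe set, 1456619_at, reached the filter value on 3 arrays. It gave 4.05 ± 0.17 in FpB6CBA and 3.04 ± 0.14 in FpB6D2 (SD, n = 3 each). The 4 line means other than that of FpB6CBA were under the filter value and have no order, so this probe set adds little to the lead. Genes most like Liph were P4ha1 (r = 0.976) and Plod2 (0.959), both collagen hydroxylase genes, and Tnfaip8 (0.949). Liph makes lysophosphatidic acid, and its receptor genes also differed among the lines. Of 7 tested genes of phospholipase A1 relatives and lysophosphatidic acid receptors, 6 differed among the 5 lines, against 32.9% of all genes.

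Lpar6, the receptor gene paired with Liph in human hair growth, averaged 5.29 in FpB6CBA, 8.02 in R1 and 6.41 in NmB6D2. R1 minus NmB6D2 was 1.61 ± 0.08 (limma adjusted p = 5.96e-10) and FpB6CBA minus NmB6D2 was -1.12 ± 0.08 (adjusted p = 9.01e-08). Lpar4 was 2.91 ± 0.10 higher in R1 than in NmB6D2 (adjusted p = 1.02e-11), with NmB6D2 under the filter value at 2.77, and Lpar1 was 1.59 ± 0.11 higher in FpB6D2 than in NmB6D2 (adjusted p = 3.07e-08). Lpar2 was lower by 1.56 ± 0.12 in FpB6D2 (adjusted p = 6.14e-08). FpB6CBA, highest for Liph, thus had less Lpar6 signal than NmB6D2, and R1, second for Liph, had more.

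Calml4 was high in FpB6CBA and NmB6D2. It read 9.41, 9.49 and 9.64 in FpB6CBA, 6.06, 6.32 and 6.35 in FpB6D2, and 6.57, 6.90 and 6.91 in OpB6D2. R1 read 4.08, 4.22 and 4.39, and NmB6D2 read 9.46, 9.48 and 9.49. FpB6CBA and NmB6D2 overlapped, FpB6D2 and OpB6D2 were close but apart, and R1 was lowest on every array. R1 minus NmB6D2 was -5.25 ± 0.09 (38.1-fold), and FpB6D2 minus NmB6D2 was -3.24 ± 0.09 (9.42-fold).

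Calml4 rests on 1 probe set, 1424713_at. Of the other calmodulin genes on the list, 2 were measured and both stayed under the filter, so the family gave no comparison. Genes most like Calml4 were Large2 (r = 0.990), a gene of glycosylation of dystroglycan, Mpzl2 (0.985), an epithelial adhesion gene, and Slc35f2 (0.982). Mpzl2 and Slc35f2 lie on chromosome 9, as Calml4 does. The gene next to Calml4 among those tested, Cln6, a gene of lysosomal storage disease, also had its highest means in FpB6CBA and NmB6D2. It averaged 7.80 ± 0.13 in FpB6CBA, 6.61 ± 0.03 in FpB6D2, 7.02 ± 0.09 in OpB6D2, 6.59 ± 0.13 in R1 and 8.09 ± 0.03 in NmB6D2 (SD, n = 3 each). It differed among the lines with an adjusted p = 3.93e-10 by limma.

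Keratin genes among the trophectoderm markers did not share the line order of Calml4. Krt7 averaged 7.88 in FpB6CBA, 5.91 in FpB6D2, 4.49 in OpB6D2, 4.80 in R1 and 8.57 in NmB6D2. Like Calml4 it was higher in FpB6CBA and NmB6D2 than in the other 3 lines, but its lowest line was OpB6D2 and not R1. Krt8, Krt18 and Krt19 were high in R1, where Calml4 was lowest, at 11.05, 10.88 and 10.25, against 11.24, 11.28 and 9.29 in NmB6D2. They were lower than in NmB6D2 in FpB6D2 (9.22, 9.29 and 6.78) and OpB6D2 (7.73, 7.72 and 5.75), as Calml4 was. Hand1, another marker of that list, had its highest means in FpB6CBA and NmB6D2 and its lowest in R1, as Calml4 did. Its R1 minus NmB6D2 difference was -2.77 ± 0.11. Elf5 was above the filter value in NmB6D2 alone. In R1 against NmB6D2, limma called 3 of the 10 markers lower (Elf5, Hand1 and Krt7) and 1 higher (Eomes). Over all genes 5.49% were called lower and 7.39% higher. The summed signal of the 10 trophectoderm markers departed from the pattern of Calml4 in R1. R1 had 12.61 to 12.76, as high as NmB6D2 with 12.66 to 12.78. In the other lines the sum was high and low where Calml4 was. FpB6CBA had 12.38 to 12.63, while FpB6D2 reached at most 10.91 and OpB6D2 at most 10.21. FpB6D2 lay above OpB6D2, the reverse of their order in Calml4. In FpB6D2 and in OpB6D2 against NmB6D2, limma called 6 of the 10 markers lower and 0 higher. The part of such cells in the Calml4 level was not tested.

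R1 stood apart in Car4. The lead, 1448949_at, read 7.74, 7.80 and 7.88 in FpB6CBA, 7.48, 7.63 and 7.65 in FpB6D2, and 7.42, 7.56 and 7.57 in OpB6D2. R1 read 3.02, 3.24 and 3.42, and NmB6D2 read 8.39, 8.48 and 8.5. R1 lay under the filter value on all 3 arrays, NmB6D2 was highest without overlap, and FpB6D2 and OpB6D2 overlapped. R1 minus NmB6D2 was -5.23 ± 0.12, at least 24.1-fold.

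The further Car4 probe set, 1418094_s_at, had the same order of lines, with 4.00 ± 0.23 in R1 and 7.98 ± 0.04 in NmB6D2 (SD, n = 3 each). In 10 of the 12813 genes R1 lay at least 3 units below all 4 other lines. Among these were Rhox5, an X-linked homeobox gene, and Olig1, an oligodendrocyte factor gene. Both were also among the 3 genes most like Car4 (r = 0.983 and 0.979), after Ccdc160 (0.987).

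The other carbonic anhydrase genes called in R1 against NmB6D2 were all higher in R1. Of 10 tested, 5 differed among the lines, against 32.9% of all genes. In R1 against NmB6D2, limma called 4 higher and 0 lower (5 and 2 at an unadjusted p under 0.05), where 7.39% of all genes were higher and 5.49% lower. Car2, the main cytosolic enzyme, averaged 11.31 in R1 and 8.14 in NmB6D2 (difference 3.17 ± 0.07, limma adjusted p = 1e-13, 3 arrays per line). Car3 (2.31 ± 0.10), Car14 (1.48 ± 0.14) and Car13 (1.24 ± 0.08) were higher in R1 than in NmB6D2 too. Car13 had its highest mean in FpB6D2, at 6.34 against 5.45 in R1. Car2 was lower in FpB6CBA than in NmB6D2 (-1.04 ± 0.07, adjusted p = 2.84e-08). Car8, whose product lacks enzyme activity, was higher in FpB6CBA (1.61 ± 0.12, adjusted p = 1.85e-07) and FpB6D2 (1.74 ± 0.12, adjusted p = 2.98e-08) than in NmB6D2. It averaged 3.79 in R1, its lowest line, and 4.12 in NmB6D2.

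Car4 is also known from lung capillaries. Of 8 endothelial markers, Cdh5, Tie1 and Emcn were under the filter value in every line. In R1 against NmB6D2, 1 of the 5 tested markers was higher (Kdr) and 1 lower (Esam). Over all genes 7.39% were called higher and 5.49% lower in that comparison. Of 8 tested fibroblast markers, which feeder cells express, limma called 5 higher and 0 lower in R1 (6 and 0 at an unadjusted p under 0.05). The shares of all genes beside these counts are the same 7.39% and 5.49%. Summed over 9 fibroblast markers, the signal was 13.23 to 13.31 in R1, against 11.16 to 11.27 in NmB6D2. Vim alone made up 80.3% to 80.6% of it in R1 and 72.8% to 73.4% in NmB6D2. Over the 8 others it was 10.88 to 10.94 in R1 and 9.25 to 9.39 in NmB6D2. The part of such cells in the Car4 level was not tested.

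Myo1f was high in the 2 parthenogenetic B6D2 lines. Its lead, 1429525_s_at, read 5.66, 5.77 and 5.85 in FpB6CBA, 8.58, 8.61 and 8.61 in FpB6D2, and 9.16, 9.19 and 9.20 in OpB6D2. R1 read 3.42, 3.57 and 3.73, and NmB6D2 read 5.00, 5.10 and 5.15. All 5 lines were apart. FpB6D2 minus NmB6D2 was 3.51 ± 0.04 (11.4-fold), and OpB6D2 minus R1 was 5.61 ± 0.09, at least 39.9-fold.

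All 3 Myo1f probe sets kept this split. On 1429524_at, which reached the filter value on 9 arrays, FpB6D2 averaged 7.69 ± 0.06, OpB6D2 8.13 ± 0.07 and NmB6D2 3.58 ± 0.07 (SD, n = 3 each). On 1421618_at they averaged 7.07 ± 0.07, 7.12 ± 0.06 and 4.83 ± 0.03. On that probe set FpB6D2 and OpB6D2 overlapped, and the gap between OpB6D2 and R1 was 2.97 units. Genes most like Myo1f were Mypn (r = 0.985), a sarcomere gene, Acsbg3 (0.982), also on chromosome 17, and Ak7 (0.972), an adenylate kinase gene of cilia.

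Of the 10 leukocyte markers, 5 did not pass the filter. These were Ptprc (CD45), Cd52, Cd53, Tyrobp and Cd48, under the filter value in every line. Ptprc averaged 3.04 in FpB6D2, 2.75 in OpB6D2 and 2.98 in NmB6D2. Fcer1g (4.09 to 4.49) and Spi1 (3.92 to 4.29) were slightly above the filter value in every line. Lyz2 averaged 5.53 in FpB6CBA and 4.29 in OpB6D2, and was under the filter value in the other lines. Of 5 tested leukocyte markers, limma called 0 in OpB6D2 against NmB6D2 (2 higher and 2 lower at an unadjusted p under 0.05), where 3.24% of all genes were called higher and 2.6% lower. In FpB6D2, Laptm5 was higher (1.43 ± 0.08, limma adjusted p = 3.64e-09) and Coro1a lower (-1.56 ± 0.19, adjusted p = 7.26e-06). Laptm5 was well above the filter value in all 5 lines, with 10.01 in FpB6D2, 9.53 in OpB6D2 and 8.58 in NmB6D2. The summed signal of the 10 markers was 10.01 to 10.27 in FpB6D2, 9.70 to 9.85 in OpB6D2 and 8.98 to 9.08 in NmB6D2 (log2 of the sum). Laptm5 alone made up 88.5% to 91.2% of it in FpB6D2, 84.1% to 86.8% in OpB6D2 and 73.1% to 73.9% in NmB6D2. Summed over the 9 other markers, the signal was 6.77 to 6.89 in FpB6D2, 6.93 to 7.05 in OpB6D2 and 7.07 to 7.15 in NmB6D2. It was 7.13 to 7.44 in FpB6CBA and 6.69 to 6.84 in R1, the line with the least Myo1f signal. The part of such cells in the Myo1f level was not tested.

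Other unconventional myosin genes differed less. Of 18 tested, 6 differed among the lines, a share close to the 32.9% of all genes, with a median range of 0.83. In OpB6D2 against NmB6D2, limma called 2 higher and 0 lower (6 and 6 at an unadjusted p under 0.05). Over all genes 3.24% were called higher and 2.6% lower. The higher myosin genes were Myo7a (1.48 ± 0.14, limma adjusted p = 1.27e-06), a hair-cell motor gene, and Myo5a (1.25 ± 0.18, adjusted p = 4.53e-05), a vesicle transport motor gene. In FpB6D2, where 5.22% of genes were higher and 5.53% lower, 1 was lower, Myo18a (-1.2 ± 0.10, adjusted p = 9.09e-08). The differences of these 18 genes from NmB6D2 reached at most 1.48 in size in both lines, against 3.51 in FpB6D2 and 4.10 in OpB6D2 for Myo1f.

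Calcoco2 differed among the lines of B6D2 origin, which need not share a genotype, by its whole range. Its only probe set, 1429483_at, read 7.84, 7.89 and 7.94 in FpB6CBA, 10.38, 10.55 and 10.56 in FpB6D2, and 8.81, 8.84 and 8.94 in OpB6D2. R1 read 6.91, 7.05 and 7.34, and NmB6D2 read 6.31, 6.38 and 6.39. The 5 lines formed 5 separate steps, and none was near the filter value. OpB6D2 minus NmB6D2 was 2.51 ± 0.05 (5.68-fold) and FpB6D2 minus OpB6D2 was 1.63 ± 0.07 (3.10-fold).

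Genes most like Calcoco2 were Angptl4 (r = 0.981), a gene for an inhibitor of lipoprotein lipase, Btbd11 (0.975) and Thbd (0.971), the thrombomodulin gene. Among autophagy receptor and Atg8 genes, of 16 tested, 6 differed among the lines, near the 32.9% of all genes, with a median range of 0.76. In FpB6D2 against NmB6D2, limma called 0 higher and 2 lower (6 and 7 at an unadjusted p under 0.05). Over all genes 5.22% were called higher and 5.53% lower. The lower genes of the list were Bnip3 (-2.27 ± 0.06, adjusted p = 1.71e-12), a mitophagy receptor gene induced by hypoxia, and Calcoco1 (-1.04 ± 0.09, adjusted p = 2.33e-07), a related gene. In R1, Rb1cc1 (1.91 ± 0.13), a subunit gene of the kinase that starts autophagy, and Gabarap (1.43 ± 0.05) were higher and Bnip3 lower than in NmB6D2. Retreg1, an endoplasmic reticulum autophagy receptor gene, was 1.2 ± 0.08 higher in FpB6CBA than in NmB6D2 (adjusted p = 2.93e-08).

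Relatives of Ipp, Pdxdc1, B4galnt2 and Baiap2l1 were counted in the same way. Of 25 tested BTB-kelch genes, the family of Ipp, 10 differed among the lines, against 32.9% of all genes, with a median range of 0.88. Klhl13, an X-linked adaptor gene of a ubiquitin ligase, averaged 8.79 in FpB6CBA, 9.71 in FpB6D2, 8.60 in OpB6D2, 7.59 in R1 and 10.15 in NmB6D2 (adjusted p = 1.06e-12 by limma over the 5 lines). In FpB6CBA, the line with high Ipp, limma called 0 of the 25 higher than in NmB6D2 and 1 lower, Klhl13 (4 and 11 at an unadjusted p under 0.05), where 2.57% of all genes were higher and 1.63% lower. Of 5 tested decarboxylase genes set beside Pdxdc1, 3 differed, among them Ddc, the aromatic amino acid decarboxylase gene, higher in FpB6D2 (2.14 ± 0.07) and OpB6D2 (2.18 ± 0.07) than in NmB6D2. Hdc, the histidine decarboxylase gene, was 1.39 ± 0.08 higher in FpB6CBA than in NmB6D2. Of 9 glycan transferase genes set beside B4galnt2, 3 differed, a share close to that of all genes, and in FpB6CBA against NmB6D2 their differences lay between -0.42 and 0.47. The 2 tested I-BAR genes, Baiap2 and Mtss1, had ranges of 0.78 and 0.88, under the 2-fold minimum.

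Genes next to the 9 in the reference order differed about as often as genes in general. The 5 tested genes on each side gave 85 neighbours, of which 26 (30.6%) differed among the lines, against 32.9% of all genes, with a median range of 0.66. Baiap2l1 had 5 of 10, Pdxdc1, Ipp and Liph 4 of 10 each, Myo1f 3 of 10, Calml4 and Car4 2 of 10 each, and Calcoco2 and B4galnt2 1 of 10 each. The widest neighbours were Bmerb1 (range 3.41) and Pla2g10 (3.05), both beside Pdxdc1 on chromosome 16. Bmerb1 was highest in FpB6D2, at 8.02 ± 0.05, and Pla2g10 lowest in R1, at 5.32 ± 0.19 (SD, n = 3 each). Neither repeated the split of Pdxdc1, with r = 0.543 and 0.447 over the 15 arrays.

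Only 3 called neighbours correlated with their gene above 0.9. They were Cln6 with Calml4 (0.929), and Smurf1 (0.929), a ubiquitin ligase gene, and Bhlha15 (0.902), a transcription factor gene of secretory cells, with Baiap2l1 on chromosome 5. Smurf1 averaged 7.88 ± 0.15 in FpB6CBA, 6.59 ± 0.06 in FpB6D2, 6.58 ± 0.04 in OpB6D2, 5.94 ± 0.13 in R1 and 6.84 ± 0.07 in NmB6D2 (SD, n = 3 each). Bhlha15 averaged 7.29 ± 0.10 in FpB6CBA and 6.73 ± 0.10 in NmB6D2. As in Baiap2l1, FpB6CBA was highest and NmB6D2 second in both. B4galnt2 and Calcoco2 lie on chromosome 11 with 5 tested genes between them, Igf2bp1, Gip, Snf8, Ube2z and Atp5g1. Their line means spanned 0.45 to 0.99, all under the 2-fold minimum.

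The embryonic stem cell markers Pou5f1 and Sox2 were high in all 5 lines, at 11.38 to 12.02 and 10.96 to 11.26. Across the tested genes, which are not independent of each other, 2 arrays correlated at 0.993 to 0.998 within a line and at 0.910 to 0.978 between lines. Hybridisation control probe sets averaged 10.16 in FpB6CBA and 10.05 in FpB6D2, against 9.55 in OpB6D2, 9.49 in R1 and 9.57 in NmB6D2. Poly-A control probe sets averaged 8.30 in FpB6CBA, 7.75 in FpB6D2, 7.51 in OpB6D2, 7.45 in R1 and 7.37 in NmB6D2. Like the poly-A controls, the leads of Ipp, Baiap2l1 and B4galnt2 had FpB6CBA alone above their widest gap. That gap was 3.87, 4.20 and 2.57 log2 units in these leads. On the hybridisation controls FpB6D2 lay beside FpB6CBA, which it did not on these leads. The part of the control signals in the levels of these genes was not tested.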

How the data were processed

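RNA of 15 samples, 3 from each of 5 mouse embryonic stem cell lines, was measured on Affymetrix mouse arrays. Per the labels' protocols, the authors made the log2 intensities of the deposited table with RMA in the affy package. The versions are not given in the sources used here. The log base was inferred from the range of 1.99 to 13.96. RMA sets the arrays to a common distribution, so values near 3 are background and understate differences. The number of arrays limits the precision.

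Of 45101 probe sets, 34945 had 1 gene symbol, 932 several, 9160 none and 64 were controls. A gene was represented by its probe set of highest mean, and tested if it reached 3.864 on at least 3 arrays. Line means were fitted over all 15 arrays with limma 3.58.1 in R 4.3.3. The calls used a moderated F test over the lines and contrasts against NmB6D2, which share those arrays, at a Benjamini-Hochberg adjusted p under 0.05 and a 2-fold difference. On simulated data with 12813 genes, the F test found 100 of 100 genes changed by 1.5 log2 units and 100 of 100 changed by 3. The simulated noise was independent between arrays, at the fitted spread of each gene. It therefore checks the calculation and cannot cover differences between derivations of a line.

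The 9 genes and all lists were chosen with earlier results of these data known. Besides the 9 genes, the text names the 3 genes most correlated with each lead, called neighbours, and called genes of each list by range. Pairing by replicate number, which 13 array titles carry, was checked: 1 of 12 same-number pairs of arrays had deviations correlated over 0.1 (r from -0.181 to 0.127), so the numbers were not taken as pairs. Promoters came from RefSeq.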

Additional observations from a re-analysis of the deposited data

How the results depend on the processing

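The difference between the highest and the lowest line kept its direction in the 9 lead probe sets when each array of those 2 lines was left out, with values of 5.65 to 5.82 for Pdxdc1, 4.60 to 4.75 for Ipp, 4.11 to 4.20 for Calcoco2, 6.48 to 6.57 for Baiap2l1, 4.27 to 4.48 for Liph, 5.21 to 5.37 for Calml4, 5.13 to 5.33 for Car4, 3.81 to 4.02 for B4galnt2 and 5.54 to 5.69 for Myo1f. The choice of probe set mattered most. With each further probe set in place of the lead, an alternative chosen after seeing the data, the difference turned to -3.28, -0.73 and -0.53 for Pdxdc1 and to -0.042 for B4galnt2. The mean over all probe sets of a gene gave 0.29 for Pdxdc1, 1.72 for B4galnt2, 2.71 for Liph, 4.61 for Car4, 4.70 for Myo1f and 5.74 for Baiap2l1. With line means under the filter value raised to it, also chosen after seeing the data, the differences were 5.17 for Pdxdc1, 4.59 for Car4, 3.38 for B4galnt2 and 5.32 for Myo1f, and did not change for the other 5 leads. Ipp has no probe set without the ending _a_at, so leaving those out gave no value for it. With 10 genes on each side in place of 5, 50 of 165 neighbours differed, against 26 of 85. The rule for the probe set of a gene moved the counts most. With the mean of all probe sets, 3058 genes and 23 neighbours differed among the lines, and 368, 964, 554 and 1182 genes were called in FpB6CBA, FpB6D2, OpB6D2 and R1 against NmB6D2. With the probe set of largest variance these were 5214, 36, 717, 1687, 916 and 2142. Without probe sets ending in _x_at, _s_at or _a_at they were 3751, 28, 469, 1225, 658 and 1471, over fewer genes. Leaving out each array moved the genes differing among the lines between 4192 and 4248, and the calls against NmB6D2 between 526 and 570 for FpB6CBA, 1353 and 1383 for FpB6D2, 748 and 775 for OpB6D2 and 1640 and 1681 for R1, and the neighbours between 26 and 28. With a replicate block over the 13 arrays whose titles carry a number, 4388 genes differed among the lines, and 596, 1388, 797 and 1688 genes were called in FpB6CBA, FpB6D2, OpB6D2 and R1 against NmB6D2, with 28 neighbours. Without the block these were 4211, 538, 1377, 748, 1651 and 26. Levels under about 3.864 cannot be ordered, which bears on the leads of B4galnt2 in 3 lines and of Pdxdc1, Car4 and Myo1f in R1, and on the further Liph probe set in 4 lines.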

Other observations

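Among 5651 genes with several probe sets at the filter value, 73 (1.29%) had probe sets that differed by at least 1 log2 unit in opposite directions between the same 2 lines. Pdxdc1 and Ssh1, which encodes a phosphatase that activates cofilin, did so by at least 2, and Pdxdc1 alone by at least 3. For FpB6CBA minus NmB6D2, Pdxdc1 had 3.67 on 1452705_at and -5.02 on 1419327_at. For FpB6CBA minus R1, Ssh1 had 2.01 on one probe set and -2.42 on another, and Armc8 had 1.92 and -2.23. Dppa2, a gene of pluripotent cells, had 1.84 and -4.49 for FpB6D2 minus R1. Rps9, a ribosomal protein gene, had 1.42 and -4.60 for R1 minus NmB6D2. Marf1, a neighbour of Pdxdc1 on chromosome 16, had 1.2 and -1.26 for FpB6CBA minus R1. These genes were chosen after their values were seen, and the cause was not tested.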
